A study of Mus musculus with 9 samples.

Results

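The enzymes that place and remove methyl groups on histones and DNA were followed in the retinas of db/db mice and wild-type mice. A list of 56 genes was used, covering the flavin- and 2-oxoglutarate-dependent demethylases, the TET enzymes, the histone methyltransferases and the DNA methyltransferases, and 55 of them averaged 1 FPKM or more across all 9 columns. The table held 35397 genes, of which 14588 passed that filter and were tested. FPKM divides a gene's reads by its length and by the size of the library, so levels of different genes can be set beside each other. The last gene inside the filter was Tet1 at a mean of 1.24 FPKM, and the only listed gene outside it was Dnmt3b at 0.951 FPKM.

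The db/db group held 4 libraries, numbered 1, 3, 4 and 5 in their labels, and the wild-type group held 5, numbered 1 to 5. db/db mice carry a mutation of the leptin receptor gene and develop obesity and diabetes. The labels give the tissue as retina for both groups and give no age, sex, background strain, litter or batch. Nothing in them ties a library to its own animal, and the p-values below therefore describe library-to-library spread, which may be technical. The series title places BCAT1, which moves amino groups from branched-chain amino acids onto 2-oxoglutarate, beside an epigenetic effect, and 2-oxoglutarate is the co-substrate of most of the demethylases described here.

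Histone methylation is read by position. Methyl groups on lysines 4, 36 and 79 of histone H3 mark active genes, whereas those on lysines 9 and 27 of H3 and lysine 20 of H4 mark silent or compact chromatin. SET-domain enzymes, and DOT1L with a different fold, place these marks with S-adenosylmethionine as the methyl donor. The LSD1 pair of flavin enzymes and the JmjC enzymes take them off, while TET enzymes oxidise methylated cytosine in DNA. Retinal neurons no longer divide, and mouse rods are known for an unusual nucleus with its heterochromatin packed at the centre.

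In 5 of the 55 genes (9.09%) the 4 db/db libraries and the 5 wild-type libraries did not overlap, against 11.6% of all tested genes, so such separation was no more frequent among the members than in the table. The promoter windows of these 5 genes are shown as a description, and no expression value was tested against them. The sequences are from RefSeq (GRCm38.p6), run from 250 bases before to 50 bases after the transcript start, and were taken at the start nearest to that of the GENCODE gene. They lie at chr17:34898224-34898523, plus strand (Ehmt2), chrX:8074711-8075010, minus strand (Suv39h1), chr7:4739877-4740176, plus strand (Kmt5c), chr1:189922242-189922541, minus strand (Smyd2) and chr11:79992856-79993155, plus strand (Suz12). Capitals mark the GC box GGGCGG on either strand, and copies that overlap were counted separately.
Ehmt2: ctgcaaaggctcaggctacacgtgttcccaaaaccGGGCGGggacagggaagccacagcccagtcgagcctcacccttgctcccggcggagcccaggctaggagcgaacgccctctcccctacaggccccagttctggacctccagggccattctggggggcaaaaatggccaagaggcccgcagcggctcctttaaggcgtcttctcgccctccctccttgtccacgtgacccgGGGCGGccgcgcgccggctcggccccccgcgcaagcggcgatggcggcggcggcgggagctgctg
Suv39h1: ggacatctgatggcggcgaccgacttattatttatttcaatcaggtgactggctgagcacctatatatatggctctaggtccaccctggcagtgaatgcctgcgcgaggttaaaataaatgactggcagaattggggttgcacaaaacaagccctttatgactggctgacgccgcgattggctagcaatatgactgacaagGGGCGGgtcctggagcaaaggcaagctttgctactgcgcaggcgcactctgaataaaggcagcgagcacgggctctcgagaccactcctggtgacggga
Kmt5c: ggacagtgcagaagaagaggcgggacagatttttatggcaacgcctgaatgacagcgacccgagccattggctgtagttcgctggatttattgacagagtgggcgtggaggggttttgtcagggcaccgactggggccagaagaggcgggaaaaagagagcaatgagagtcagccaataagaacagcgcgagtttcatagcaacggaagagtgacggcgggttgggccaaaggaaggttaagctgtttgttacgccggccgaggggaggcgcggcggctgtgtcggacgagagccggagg
Smyd2: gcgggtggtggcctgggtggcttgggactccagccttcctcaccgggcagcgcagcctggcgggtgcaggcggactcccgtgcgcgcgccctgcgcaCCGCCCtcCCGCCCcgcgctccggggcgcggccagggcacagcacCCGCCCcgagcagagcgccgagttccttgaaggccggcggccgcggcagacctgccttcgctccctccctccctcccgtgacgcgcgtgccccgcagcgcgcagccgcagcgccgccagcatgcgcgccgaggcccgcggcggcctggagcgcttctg
Suz12: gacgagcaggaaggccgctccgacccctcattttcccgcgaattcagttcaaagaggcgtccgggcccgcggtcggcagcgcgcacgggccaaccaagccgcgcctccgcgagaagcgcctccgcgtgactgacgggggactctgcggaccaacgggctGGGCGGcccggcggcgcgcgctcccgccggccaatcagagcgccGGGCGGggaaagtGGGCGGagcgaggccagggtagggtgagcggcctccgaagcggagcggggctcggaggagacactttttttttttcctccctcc
The GC box stood 2 times in the window of Ehmt2, 1 time in that of Suv39h1, 0 times in that of Kmt5c, and 3 times each in those of Smyd2 and Suz12. It was held by 35.7% of the 32851 RefSeq windows, by 61.96% of the 12620 windows of tested genes and by 70.7% of the 58 member windows. The CpG dinucleotide occurred 28 times in the Ehmt2 window, 15 times in that of Suv39h1, 22 times in that of Kmt5c, 43 times in that of Smyd2 and 41 times in that of Suz12, against a median of 20 over the windows of tested genes, 27.5 over the 58 windows of 42 members and 7 over all windows. The box was present both in the window of Suz12, which was lower in the db/db libraries, and in 3 of the 4 windows of genes that were higher.

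**Figure D1:**
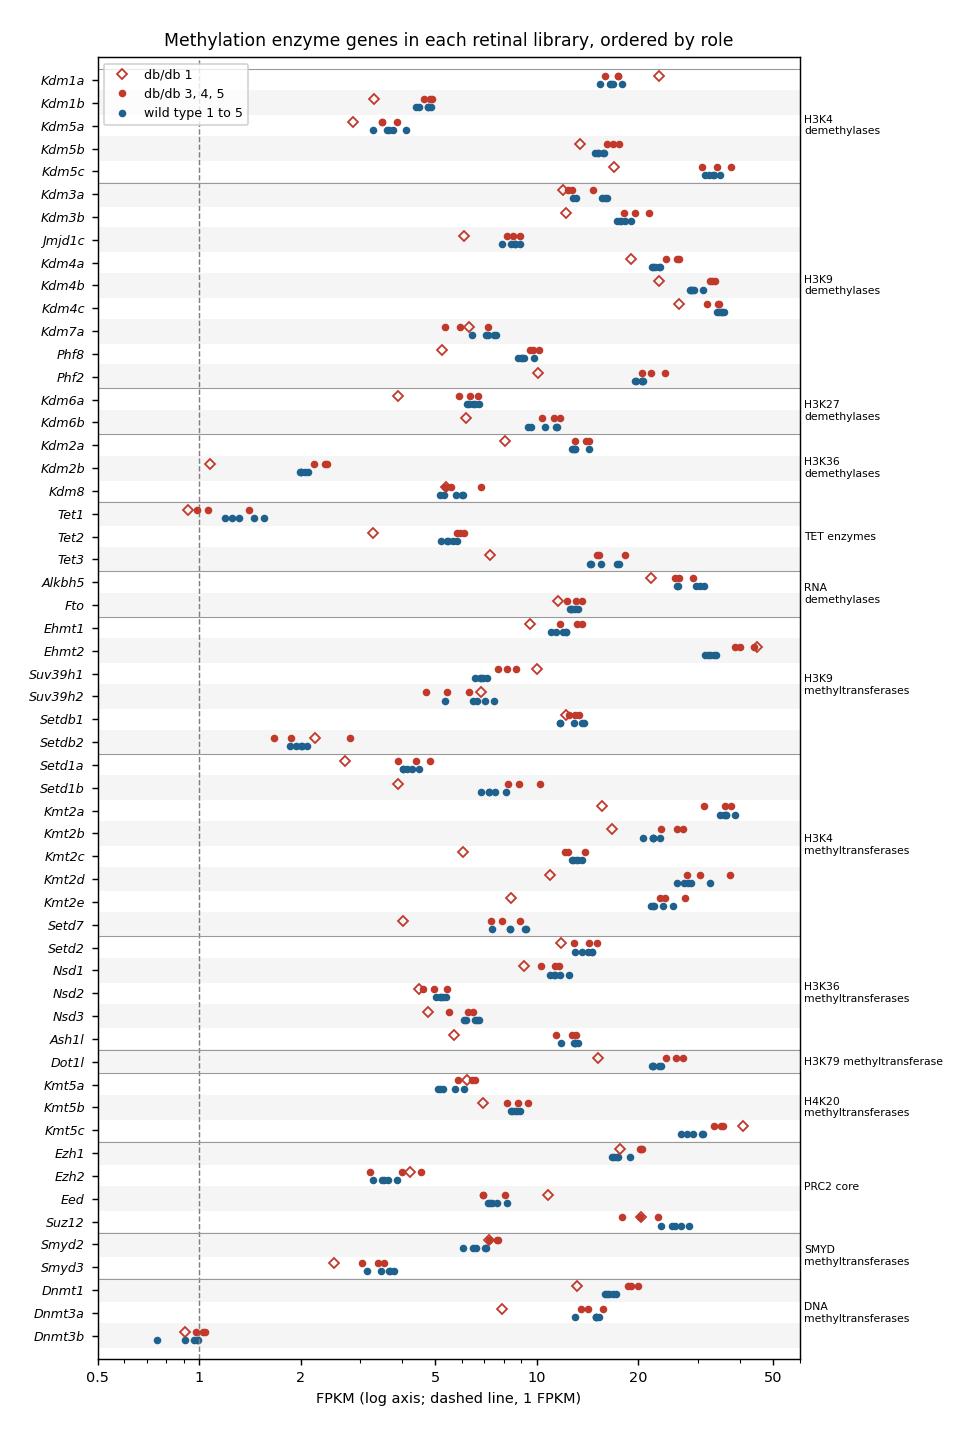
FPKM of each listed gene in every library on a log axis, ordered by role, with db/db 1 as open diamonds, db/db 3, 4 and 5 as filled red circles and wild type as blue circles. In 40 of the 55 tested genes db/db 1 was the lowest of the 9 libraries, while the other libraries lay close together.

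The retina expressed these genes at moderate and closely repeated levels. The 55 genes ranged from 1.24 to 36.8 FPKM, with a median of 11.9 FPKM against 6.49 FPKM for all tested genes. Among wild-type libraries the median coefficient of variation of a member was 4.59%, against 6.65% for all tested genes. The recovered reads behind a member's value in 1 library ran from 247 for Setdb2 to 30595 for Kmt2d, with a median of 5003.

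The highest level was that of Ehmt2 (36.8 FPKM over all 9 libraries), followed by Kmt2a (33.6 FPKM), Kdm4c (33.6 FPKM), Kmt5c (32.3 FPKM) and Kdm5c (31.7 FPKM). In wild type alone (SD, n = 5) the order was Kmt2a (36.4 ± 1.43 FPKM), Kdm4c (35.1 ± 0.635 FPKM), Kdm5c (33.1 FPKM, 31.5 to 34.8) and Ehmt2 (32.7 ± 0.948 FPKM), and each overlapped its neighbour in that order. Kdm4b (29.2 ± 1.10 FPKM) and Kmt5c (29.1 ± 1.88 FPKM) came next and overlapped each other, while Kdm4b lay below Ehmt2 in all wild-type libraries. At the low end stood Tet1 (1.24 FPKM), Kdm2b (2.02 FPKM), Setdb2 (2.05 FPKM), Smyd3 (3.35 FPKM) and Kdm5a (3.56 FPKM). Kdm2b and Setdb2 could not be told apart by level.

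Within families 1 member usually led. Ezh1, the PRC2 catalytic subunit found in cells that no longer divide, averaged 19.7 ± 1.33 FPKM in db/db (SD, n = 4) and 17.5 ± 0.824 FPKM in wild type (SD, n = 5). Its counterpart Ezh2 averaged 3.99 ± 0.566 FPKM in db/db and 3.55 ± 0.215 FPKM in wild type. Tet3 (15.0 FPKM over all libraries) was above Tet2 (5.40 FPKM) and Tet1. Kmt5c, which adds the later methyl groups to H4 lysine 20, was above its partner in that step Kmt5b (8.49 FPKM) and above Kmt5a (5.82 FPKM), which adds the first. The de novo DNA methyltransferase Dnmt3a (13.8 FPKM) and the maintenance enzyme Dnmt1 (17.0 FPKM) were both far above Dnmt3b.

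The library db/db 1 stood apart from the other 8, and this touches every value below. Its median correlation with the others was 0.935 across tested genes (log2 scale), against 0.978 to 0.988 for the rest, and its FPKM values summed to 311179 against 252832 to 268139. Its recovered depth of 46.1 M reads lay within the range of 36.6 to 47.9 M. The counts of called members are given with and without it, while some single genes are given in 1 fit only.

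Markers of the retinal cell types were read from the same fits, 41 of 50 of them above the filter. None passed with all 9 libraries, where 4 had an unadjusted p under 0.05. In the fit without db/db 1, on which the calls of members rest, 7 passed: Sag (rods), Gad2 (amacrine cells), Slc1a3 and Rlbp1 (Müller glia) and C1qa (microglia) were lower in db/db, and Aqp4 (Müller glia) and Kdr (endothelium) were higher. Over all tested genes 10.6% were called in that fit. The 6 rod markers summed to 11022 to 12650 FPKM in db/db and 10705 to 11507 FPKM in wild type. The 4 Müller glia markers went both ways: Glul, which makes up most of their sum, had 689 to 707 FPKM in db/db against 578 to 642 FPKM in wild type, while Slc1a3 had 14.1 to 19.4 FPKM in db/db against 21.3 to 24.0 FPKM in wild type, neither with overlap. Without db/db 1 the summed levels of cone markers (449 to 465 FPKM in db/db against 466 to 519 FPKM in wild type, 5 genes), horizontal cell markers (12.8 to 14.1 against 14.2 to 15.2 FPKM, 3 genes) and microglia markers (5.26 to 6.44 against 6.78 to 9.76 FPKM, 5 genes) also did not overlap. Of all tested genes, 9.63% (higher) and 11.5% (lower) were separated in this way. Each cone marker by itself overlapped between the groups, and none was called. Calb1 made up most of the horizontal cell sum. The means of Lhx1 (1.26 against 1.15 FPKM) and Onecut1 (0.539 against 0.442 FPKM) were higher in db/db 3, 4 and 5 than in wild type. With db/db 1 included, the db/db mean was 1.19 FPKM for Lhx1 and 0.415 FPKM for Onecut1, the second below wild type.

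In db/db 1 itself the 4 pigment epithelium markers, from cells that can adhere to dissected retina, summed to 320 FPKM, with 54.5 to 150 FPKM in db/db 3, 4 and 5, against 90.5 to 144 FPKM in wild type. Its 4 bipolar and 4 amacrine cell markers summed lower than in any other library (133 and 66.7 FPKM, against at least 160 and 92.1 FPKM). Markers of horizontal and ganglion cells were mixed there, with Calb1 (19.3 FPKM) and Nefl (89.3 FPKM) the highest of the 9 libraries and Onecut1 (0.0422 FPKM), Lhx1 (0.974 FPKM) and Slc17a6 (7.09 FPKM) the lowest. The 4 markers of dividing cells summed to 0.0695 to 0.163 FPKM in db/db and 0.0536 to 0.139 FPKM in wild type, and Mki67, Top2a and Ccnb1 never reached 0.1 FPKM. The part of these marker differences in the results was not tested. In bulk tissue, fewer cells of a type and less RNA per cell cannot be told apart.

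With all 9 libraries, none of the 55 genes rose or fell at an adjusted p under 0.05 by limma, a linear model fitted over all 14588 genes on log2(FPKM + 1). On that scale fold changes of low genes are understated. Over all tested genes 0.5% were called, 0.233% as higher and 0.267% as lower. By unadjusted p 8 of the 55 were under 0.05 (14.5%), against 19.3% of all tested genes, so the list held no more small p-values than the table as a whole. limma-voom on recovered reads called 1 member, Ehmt2, with the share of all tested genes not given here. Correction for transcript length called 3 members (3.52% of all tested genes), correction for GC content and length called 1 (0.48%) and correction for GC content alone called 0 (0.0411%). With array weights, which lower the influence of a deviating library, 6 members passed (8.27% of all tested genes). The median log2 change of the members was -0.09, with 35 of 55 below 0, against a median of 0.0035 over all tested genes.

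**Figure D2:**
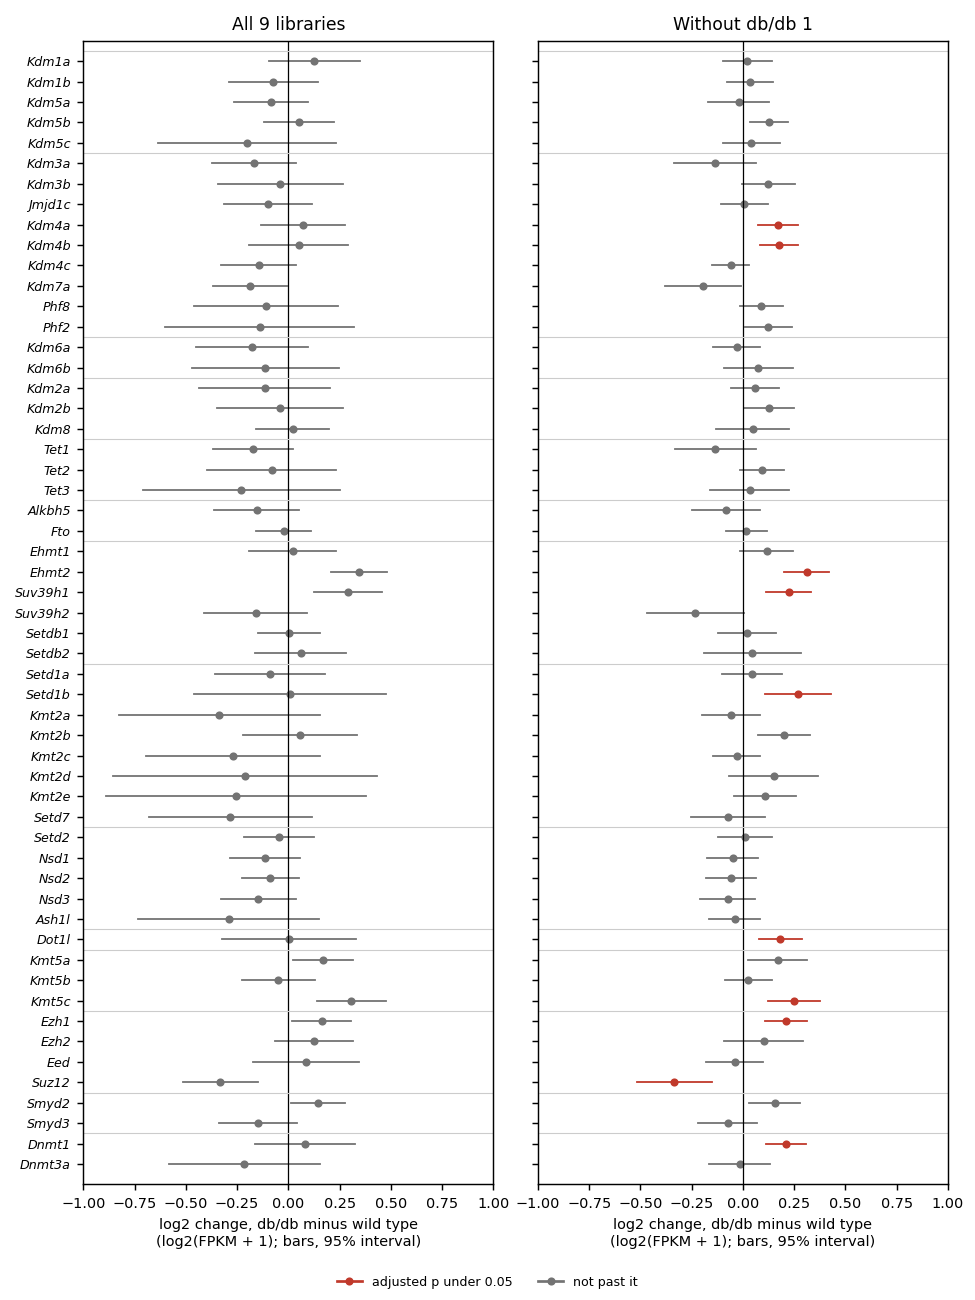
log2 change of db/db minus wild type with its 95% interval for the 55 tested genes, with all 9 libraries on the left and without db/db 1 on the right, red where the limma adjusted p was under 0.05. No gene is red on the left, and 10 are red on the right, of which 9 lie above 0 and Suz12 lies below.

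Leaving out db/db 1 gave a different picture: 10 of the 55 genes passed, 9 higher and 1 lower in db/db. That was 18.2% of the members, against 10.6% of all tested genes. By direction, 16.4% of the members were higher where 4.72% of all tested genes were, and 1.82% were lower where 5.84% were. The split over all genes depended on the scaling, with 688 higher and 852 lower as deposited, 1050 and 610 after scaling to equal sums, and 972 and 788 after median-of-ratios scaling. The members that rose were the H3K9 methyltransferases Ehmt2 and Suv39h1, the H3K4 methyltransferase Setd1b, the H3K79 methyltransferase Dot1l, the H4K20 methyltransferase Kmt5c, the PRC2 enzyme Ezh1, the DNA methyltransferase Dnmt1 and the H3K9 and H3K36 demethylases Kdm4a and Kdm4b. The PRC2 subunit Suz12 fell. So 8 of the 31 tested methyltransferases and PRC2 subunits passed, as did 2 of the 24 tested demethylases and TET enzymes. Array weights gave 11 members in this fit (9.64% of all tested genes).

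These calls rested on few libraries. When 1 further library was left out, the count of 10 became 1 (db/db 4), 3 (db/db 5), 2 (wild type 1 or wild type 2), 1 (wild type 3) or 4 (wild type 5). It was 13 when db/db 3 was left out and 7 when wild type 4 was. The share of all tested genes called in these fits is not given here, so these counts do not single out the members. Ehmt2 passed in each of these 8 fits, Dnmt1 in 6, Kmt5c and Suv39h1 in 3, Ezh1, Kdm4a, Kdm4b and Suz12 in 2, and Dot1l and Setd1b in 1. The median log2 change of the members was 0.04 without db/db 1, and 18 of the 55 changed sign between the 2 fits.

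**Figure D3:**
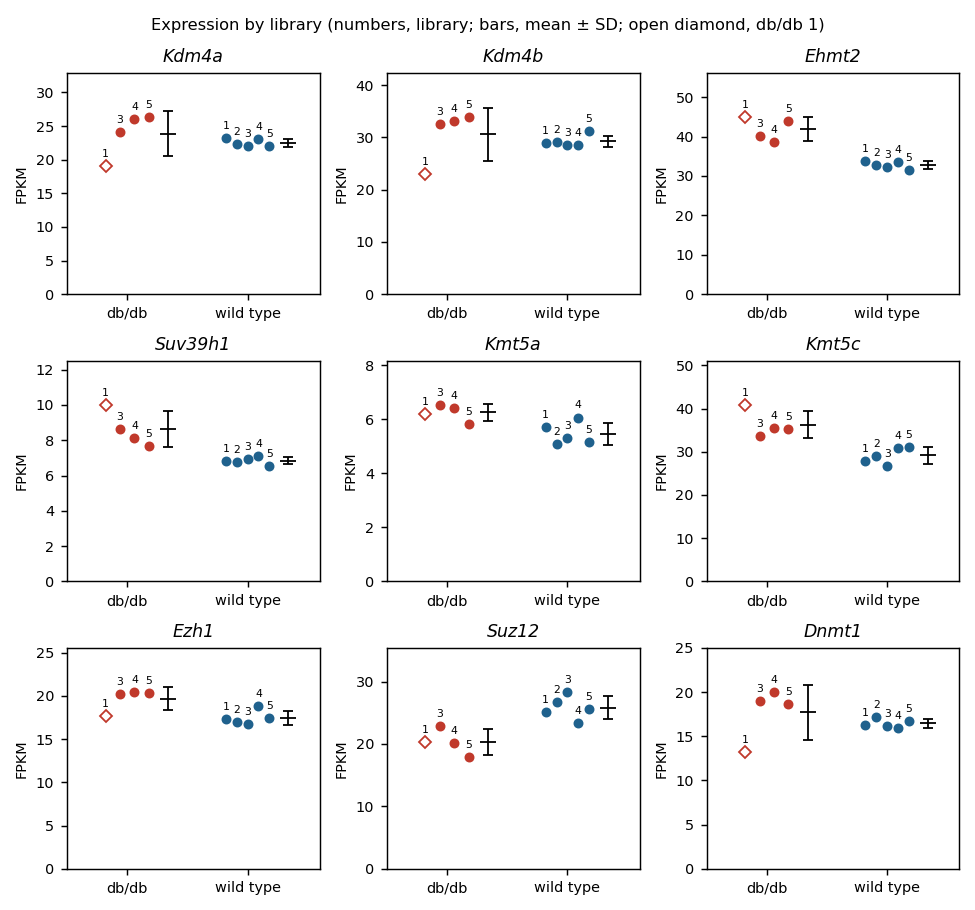
FPKM by library for 9 genes, db/db on the left of each panel and wild type on the right, with library numbers, means and SDs, and db/db 1 as an open diamond. In Ehmt2, Suv39h1 and Kmt5c all 4 db/db libraries lie above all 5 wild-type libraries and in Suz12 all lie below, while in Kdm4a, Kdm4b and Dnmt1 db/db 1 lies on the other side of the wild-type libraries from db/db 3, 4 and 5.

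The smallest p among the members, in both fits, belonged to an enzyme of H3 lysine 9 methylation. Ehmt2 (also called G9a; ENSMUSG00000013787, chromosome 17, 34898469 to 34914052, plus strand, mm10) encodes the main enzyme that adds 1 or 2 methyl groups to this lysine in euchromatin. It stood at 44.9, 40.1, 38.7 and 43.9 FPKM in db/db 1, 3, 4 and 5, against 33.9, 32.7, 32.2, 33.4 and 31.5 FPKM in wild type 1 to 5. The lowest db/db library, number 4, was above the highest wild-type library, number 1. With all 9 libraries the log2 change was 0.34 (SE 0.06, a 1.27-fold difference, limma adjusted p = 0.0526; 0.0127 to 0.428 over 24 alternatives). Without db/db 1 it was 0.31 (SE 0.05, adjusted p = 0.0133; 0.00499 to 0.184 over 23 alternatives), and it rose in each fit that left out 1 more library (adjusted p at most 0.0417).

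Its partner in the same complex, Ehmt1 (GLP), did not differ beyond the spread. Ehmt1 had 9.57, 11.7, 13.1 and 13.6 FPKM in db/db 1, 3, 4 and 5, against 11.03 to 12.2 FPKM in wild type. With all 9 libraries its log2 change was 0.02 (95% interval of the fold 0.876 to 1.17, limma adjusted p = 0.920). Without db/db 1 it was 0.12 (adjusted p = 0.204). Suv39h1, which adds the further methyl groups in heterochromatin (ENSMUSG00000039231, chromosome X, 8061171 to 8074760, minus strand), had 10.01, 8.65, 8.15 and 7.68 FPKM in db/db 1, 3, 4 and 5. Its wild-type libraries had 6.83, 6.78, 6.93, 7.12 and 6.55 FPKM.

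All 4 db/db libraries were thus above all 5 wild-type libraries for Suv39h1, with db/db 1 the highest. The log2 change was 0.29 (SE 0.07, limma adjusted p = 0.0868) with all 9 libraries and 0.22 (SE 0.05, adjusted p = 0.0272) without db/db 1. Its paralog Suv39h2 stood at 5.82 ± 0.957 FPKM in db/db (SD, n = 4) and 6.60 ± 0.792 FPKM in wild type (SD, n = 5). Its log2 change was -0.16 with a limma adjusted p of 0.452, all 9 libraries included, and -0.23 (adjusted p = 0.170) without db/db 1. The third pair, Setdb1 and Setdb2, which work on repeats and silenced genes, stood at log2 changes of 0.0028 and 0.06 (adjusted p = 0.984 and 0.759). In the fit without db/db 1, 2 of the 6 enzymes of this group rose and none fell. Gm14820, a gene on the opposite strand that shares 14.6% of the exon bases of Suv39h1, was listed at a mean of 0.0869 FPKM.

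On H4 lysine 20 the change was in Kmt5c (ENSMUSG00000059851, chromosome 7, 4740115 to 4747514, plus strand). It had 40.9, 33.6, 35.6 and 35.2 FPKM in db/db 1, 3, 4 and 5, against 27.9, 29.1, 26.8, 30.9 and 31.1 FPKM in wild type 1 to 5. The groups did not overlap, and db/db 1 was again the highest. The log2 change was 0.31 (SE 0.08, limma adjusted p = 0.0809) with all 9 libraries and 0.25 (SE 0.06, adjusted p = 0.0292) without db/db 1.

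Kmt5a had 6.21, 6.54, 6.44 and 5.84 FPKM in db/db 1, 3, 4 and 5, against 5.71, 5.09, 5.29, 6.07 and 5.16 FPKM in wild type 1 to 5. Here db/db 5 lay below wild type 4, and the log2 change of 0.17 did not pass in either fit (limma adjusted p = 0.208 and 0.112). Kmt5b had a log2 change of -0.05 (adjusted p = 0.749) with all 9 libraries and 0.03 without db/db 1. So 1 of the 3 enzymes rose in the fit without db/db 1.

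In the Polycomb complex PRC2, which methylates H3 lysine 27, 2 core members moved in opposite directions. Suz12, a scaffold subunit (ENSMUSG00000017548, chromosome 11, 79993106 to 80034123, plus strand), had 20.4, 22.9, 20.2 and 17.9 FPKM in db/db 1, 3, 4 and 5, against 25.1, 26.8, 28.3, 23.3 and 25.6 FPKM in wild type 1 to 5. All db/db libraries were below all wild-type libraries, by a small margin between db/db 3 and wild type 4. The log2 change was -0.33 (SE 0.08, limma adjusted p = 0.0806) with all 9 libraries and -0.34 (SE 0.08, adjusted p = 0.0350) without db/db 1.

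Ezh1 had 17.7, 20.3, 20.5 and 20.3 FPKM in db/db 1, 3, 4 and 5, against 17.3, 17.0, 16.7, 18.8 and 17.5 FPKM in wild type 1 to 5. The libraries db/db 3, 4 and 5 were almost equal and above all wild-type libraries, and db/db 1 lay among the wild-type values. Its log2 change was 0.16 (SE 0.06, limma adjusted p = 0.213) with all 9 libraries and 0.21 (SE 0.05, adjusted p = 0.0259) without db/db 1. Ezh2 (log2 change 0.13, adjusted p = 0.436) and Eed, the subunit that binds the mark (0.09, adjusted p = 0.693), did not pass with all 9 libraries. Eed stood at 10.8 FPKM in db/db 1 and 6.91 to 8.04 FPKM in db/db 3, 4 and 5, against 7.16 to 8.17 FPKM in wild type.

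The H3 lysine 4 methyltransferases held 5 of the 7 members whose level in db/db 1 was under 0.5 of the wild-type mean. Kmt2e, a catalytically inactive relative of the MLL enzymes, shares 9.31% of its exon bases with Srpk2 on the opposite strand (9.44 FPKM). It was lowest in db/db 1, with 8.39, 24.0, 27.5 and 23.2 FPKM in db/db 1, 3, 4 and 5, against 21.8, 22.0, 23.6, 22.3 and 25.3 FPKM in wild type 1 to 5. Kmt2d had 10.9 FPKM in db/db 1 and 27.8, 37.3 and 30.4 FPKM in db/db 3, 4 and 5, against 26.0 to 32.6 FPKM in wild type. Kmt2a (MLL1) had 15.6 FPKM in db/db 1 and 31.2 to 37.7 FPKM in the other db/db libraries, against 34.8 to 38.7 FPKM in wild type. Kmt2c likewise had 6.07 FPKM in db/db 1 and 12.1 to 13.9 FPKM in the others, against 12.7 to 13.6 FPKM in wild type. With all 9 libraries the 8 genes of this group had a median log2 change of -0.23 and none passed, with Kmt2a lowest at -0.34 (adjusted p = 0.416) and Kmt2b highest at 0.06 (adjusted p = 0.825).

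In the fit without db/db 1 the median of this group was 0.08 and Setd1b rose. Setd1b, a COMPASS enzyme, had 3.89, 8.23, 10.2 and 8.86 FPKM in db/db 1, 3, 4 and 5, against 6.85 to 8.10 FPKM in wild type, and its log2 change was 0.27 by limma (SE 0.07, adjusted p = 0.0456). Kmt2b, just outside the threshold, had 0.20 (adjusted p = 0.0501). Setd7, which also methylates many proteins other than histones, had the lowest value of the group at -0.07 (95% interval of the fold 0.839 to 1.08).

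None of the 5 H3 lysine 36 methyltransferases passed in either fit. Their log2 changes ran from -0.29 for Ash1l (adjusted p = 0.435) to -0.05 for Setd2 (adjusted p = 0.751) with all 9 libraries, and from -0.07 for Nsd3 (adjusted p = 0.427) to 0.01 for Setd2 (adjusted p = 0.920) without db/db 1. Ash1l had 5.68 FPKM in db/db 1 and 11.4 to 13.1 FPKM in db/db 3, 4 and 5, against 11.8 to 13.2 FPKM in wild type. The 95% intervals of the fold without db/db 1 were 0.886 to 1.05 for Nsd1 and 0.919 to 1.10 for Setd2.

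Dot1l, the sole enzyme for H3 lysine 79, had 15.2, 24.2, 27.1 and 25.8 FPKM in db/db 1, 3, 4 and 5, against 22.0, 22.0, 22.9, 22.1 and 23.3 FPKM in wild type 1 to 5. It was lowest in db/db 1 and highest in the other db/db libraries, and the log2 change was 0.0031 (SE 0.15, limma adjusted p = 0.991) with all 9 libraries and 0.18 (SE 0.05, adjusted p = 0.0376) without db/db 1. Smyd2, a lysine methyltransferase with targets that include p53, had 7.24, 7.67, 7.61 and 7.23 FPKM in db/db 1, 3, 4 and 5, against 7.07, 6.06, 6.62, 7.02 and 6.47 FPKM in wild type 1 to 5. Its groups did not overlap, but the log2 change of 0.14 did not pass (adjusted p = 0.231; 0.15 and 0.1001 without db/db 1). The antisense gene Gm37422 (mean 2.64 FPKM) covers 30.0% of the exon bases of Smyd2. No source used here says whether reads were counted by strand, so reads of such pairs cannot be told apart. Smyd3 had a log2 change of -0.15 (adjusted p = 0.364).

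Separation of all 4 db/db from all 5 wild-type libraries thus occurred upward in 4 of 55 members (7.27%) and downward in 1 (1.82%), against 5.2% and 6.38% of all tested genes. With db/db 1 left out it occurred upward in 14 members (25.5%) and downward in 1, against 9.63% and 11.5% of all tested genes.

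Among DNA methyltransferases, Dnmt1 had 13.2, 19.0, 20.003 and 18.6 FPKM in db/db 1, 3, 4 and 5, against 16.3, 17.2, 16.1, 16.0 and 16.8 FPKM in wild type 1 to 5. The library db/db 1 was the lowest of the 9 and the other db/db libraries were the highest. The log2 change was 0.08 (SE 0.11, limma adjusted p = 0.695) with all 9 libraries and 0.21 (SE 0.04, adjusted p = 0.0217) without db/db 1. Dnmt3a had a log2 change of -0.21 (adjusted p = 0.486) with all 9 libraries and -0.02 (adjusted p = 0.893) without db/db 1. Dnmt3b, below the filter and not tested, stood at 0.989 ± 0.0592 FPKM in db/db (SD, n = 4) and 0.920 ± 0.102 FPKM in wild type (SD, n = 5).

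None of the 24 demethylase and TET genes passed with all 9 libraries, and 2 of them rose without db/db 1. Kdm4a and Kdm4b, JmjC enzymes that remove the higher methyl states of H3 lysines 9 and 36, did so together. Kdm4a had 19.1, 24.2, 26.0 and 26.3 FPKM in db/db 1, 3, 4 and 5, against 23.2, 22.3, 22.0, 23.0 and 22.1 FPKM in wild type 1 to 5. Kdm4b had 23.1, 32.5, 33.1 and 33.8 FPKM in db/db 1, 3, 4 and 5, against 28.9, 29.2, 28.6, 28.5 and 31.1 FPKM in wild type 1 to 5. In both, db/db 1 was the lowest library of all and the other 3 db/db libraries the highest. The log2 changes were 0.17 and 0.18 (SE 0.04 each, limma adjusted p = 0.0365 and 0.0332) without db/db 1, and 0.07 and 0.05 (adjusted p = 0.684 and 0.821) with all 9 libraries. Their relative Kdm4c, the most expressed demethylase, stood at -0.06 without db/db 1 (95% interval of the fold 0.900 to 1.02).

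The other H3 lysine 9 demethylases ran from -0.19 for Kdm7a, which also acts on lysine 27, to 0.12 for Phf2 and Kdm3b without db/db 1. Kdm7a had 6.28, 7.17, 5.93 and 5.35 FPKM in db/db 1, 3, 4 and 5, against 6.45 to 7.57 FPKM in wild type, and did not pass (limma adjusted p = 0.247 with all 9 libraries). Among demethylases of H3 lysine 4, the flavin enzyme Kdm1a (LSD1) had 23.0 FPKM in db/db 1 and 15.9 to 17.4 FPKM in db/db 3, 4 and 5, against 15.4 to 17.8 FPKM in wild type. It was 1 of 5 members for which db/db 1 was the highest library. Kdm5c had 16.9 FPKM in db/db 1 and 30.8 to 37.5 FPKM in the other db/db libraries, against 31.5 to 34.8 FPKM in wild type. In the fit without db/db 1 the 5 genes of this group ran from a log2 change of -0.02 for Kdm5a to 0.13 for Kdm5b, which had the smallest p (adjusted p = 0.0809).

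The H3 lysine 27 demethylases Kdm6a (UTX) and Kdm6b (JMJD3), the second known as an enzyme induced in inflammation, did not pass. Kdm6b had 6.18, 10.3, 11.7 and 11.3 FPKM in db/db 1, 3, 4 and 5, against 9.41, 10.6, 11.5, 9.62 and 11.4 FPKM in wild type 1 to 5. Its log2 change was -0.11 (limma adjusted p = 0.716) with all 9 libraries and 0.08 (95% interval of the fold 0.938 to 1.18, adjusted p = 0.532) without db/db 1. Kdm6a had -0.03 without db/db 1 (95% interval of the fold 0.905 to 1.06).

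For the TET enzymes the 3 log2 changes were -0.17 (Tet1), -0.08 (Tet2) and -0.23 (Tet3) with all 9 libraries, and -0.13, 0.09 and 0.03 without db/db 1, and none passed (adjusted p at least 0.310 and 0.222 in the 2 fits). Tet3 had 7.29 FPKM in db/db 1 and 15.1 to 18.3 FPKM in db/db 3, 4 and 5, against 14.3 to 17.5 FPKM in wild type. Tet1 had 0.929, 1.40, 1.06 and 0.983 FPKM in db/db 1, 3, 4 and 5, against 1.19 to 1.55 FPKM in wild type, on at least 556 recovered reads. The RNA demethylases Alkbh5 and Fto, which act on methylated adenosine in RNA and not on chromatin, had log2 changes of -0.08 and 0.02 without db/db 1 (adjusted p = 0.483 and 0.844). The H3 lysine 36 enzymes Kdm2a, Kdm2b and Kdm8 had 0.06, 0.13 and 0.05 in that fit. Kdm2b had 1.08, 2.39, 2.36 and 2.19 FPKM in db/db 1, 3, 4 and 5, against at most 2.10 FPKM in wild type. Its level was lowest in db/db 1 and above all wild-type libraries in db/db 3, 4 and 5. Kdm2b did not pass without db/db 1 (limma adjusted p = 0.146). On the opposite strand, Rnf34 (mean 8.70 FPKM) shares 5.77% of the exon bases of Kdm2b, and A930024E05Rik (7.29 FPKM) shares 1.83%. Their part in its reads was not tested.

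Transcript length and base composition moved with these differences. The members have long transcripts, with a median of 6359 bases in the longest annotated isoform against 3038 over tested genes. The level in db/db 1 relative to the wild-type mean had a median of 1.06 over the 18 shortest members (1708 to 4853 bases), 0.675 over the 19 of middle length and 0.650 over the 18 longest (8350 to 19823 bases). All 5 members in which db/db 1 was highest (Kdm1a, Ehmt2, Suv39h1, Kmt5c and Eed) were among the 18 shortest, and 35 of the 40 in which it was lowest were among the other 37. Over all tested genes db/db 1 was the lowest library in 30.1% and the highest in 41.3%. Across the 55 members Spearman's rho between transcript length and the log2 difference of db/db 1 from the wild-type mean was -0.66, against -0.54 across 14490 tested genes with a known length. In db/db 3, 4 and 5 this rho was -0.47, 0.013 and -0.25 across the members, against -0.083, 0.18 and -0.13 across tested genes. The points behind each rho share 1 library and are a description, not a test.

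**Figure D4:**
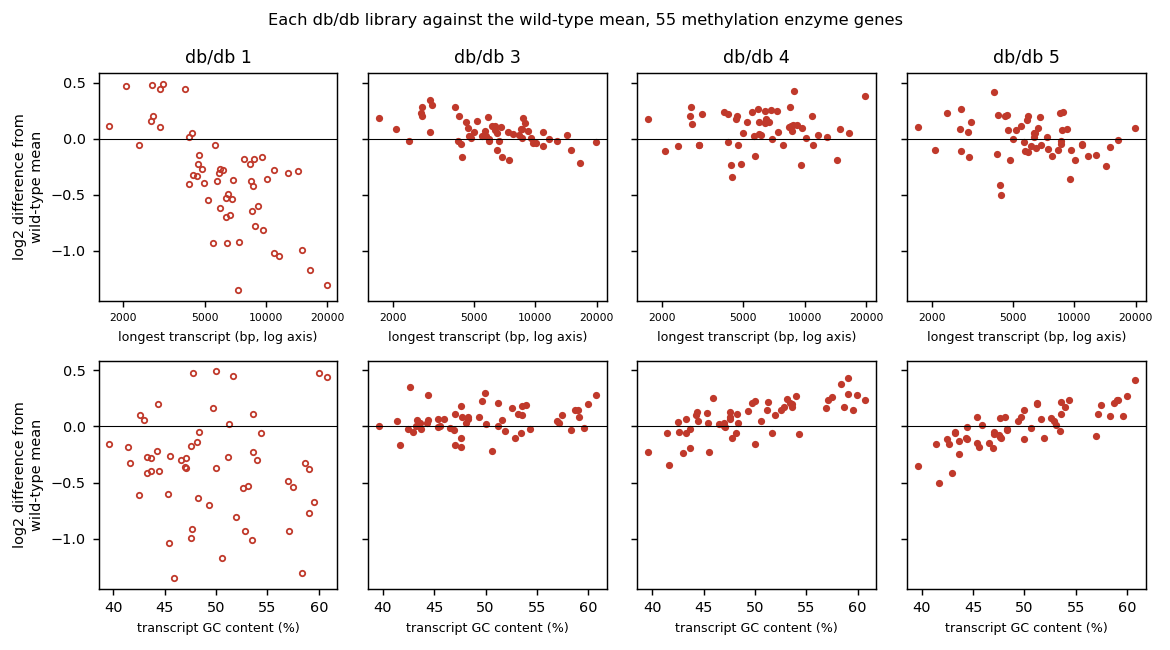
log2 difference of each db/db library from the wild-type mean for the 55 tested genes, against the length of the longest transcript (top, log axis) and its GC content in percent (bottom). The points fall with length in db/db 1 (rho -0.66) and less so in db/db 3 (rho -0.47). They climb with GC content most in db/db 4 and 5 (rho 0.71 and 0.80).

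Across the members the differences ran with GC content most in db/db 4 and 5. Spearman's rho across the members was 0.71 in db/db 4 and 0.80 in db/db 5, against 0.25 in db/db 3 and -0.11 in db/db 1. Across all tested genes it was 0.39 for db/db 4, 0.58 for db/db 5, 0.24 for db/db 3 and 0.21 for db/db 1. Each library was also set against the median of the other libraries over tested genes. There the rho with GC content was positive in every db/db library (0.13 to 0.57) and negative in every wild-type library (-0.39 to -0.074). In the fit without db/db 1, 7 of the 9 members that rose were among the 18 with the highest GC content (52.6% to 60.8%), and Suz12, at 41.6%, was among the 18 with the lowest. After a correction of each library for GC content, 4 members passed without db/db 1, against 4.89% of all tested genes, and the same 4 passed after correction for GC content and length together (6.17%). These were, with their values after the GC correction, Ehmt2 (log2 change 0.20, limma adjusted p = 0.0220), Suv39h1 (0.22, 0.0317), Ezh1 (0.20, 0.0279) and Kdm5b (0.17, 0.0387). The calls of Kmt5c (0.14, adjusted p = 0.166), Dnmt1 (0.15, 0.113), Kdm4a (0.11, 0.0920), Kdm4b (0.07, 0.407), Dot1l (0.10, 0.298), Setd1b (0.16, 0.245) and Suz12 (-0.22, 0.0824) ended with it, with no change of sign. Whether GC content reflects the libraries or the transcripts was not tested.

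The proteins that work with these enzymes were read from the same fits, as a list of 78 partners, methyl donor genes and related enzymes of which 71 were tested. None passed with all 9 libraries (15 had an unadjusted p under 0.05, and limma-voom called 0), and without db/db 1, 4 rose and 3 fell, against 4.72% and 5.84% of all tested genes. Trim28 (KAP1), which brings SETDB1 to repeats, had 69.8, 54.5, 50.2 and 52.9 FPKM in db/db 1, 3, 4 and 5, against 44.2, 41.6, 39.9, 47.8 and 41.6 FPKM in wild type 1 to 5. It was higher in every db/db library, and its log2 change was 0.28 (SE 0.06, limma adjusted p = 0.0259) without db/db 1 and 0.38 (adjusted p = 0.0924) with all 9. Ogt, the sugar transferase that binds TET proteins, had 27.7, 41.3, 43.4 and 37.2 FPKM in db/db 1, 3, 4 and 5, against 51.5, 47.8, 49.6, 47.1 and 52.2 FPKM in wild type 1 to 5. It was lower in every db/db library, with -0.28 (SE 0.06, adjusted p = 0.0228) without db/db 1 and -0.42 (adjusted p = 0.111) with all 9.

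Of the others, the arginine methyltransferases Carm1 (0.25, limma adjusted p = 0.0307) and Prmt7 (0.21, 0.0427) rose without db/db 1. Psip1, the chromatin reader that tethers MLL complexes (-0.35, 0.0337), and Cbx5, the heterochromatin protein HP1 alpha that binds methylated H3 lysine 9 (-0.16, 0.0403), fell. The remaining gene that rose, Shmt2, belongs to the methyl donor supply. Cbx5 and Prmt7 did not overlap between the groups with all 9 libraries, whereas Carm1 stood at 7.26 FPKM in db/db 1 and 11.8 to 14.0 FPKM in db/db 3, 4 and 5, against 10.4 to 11.1 FPKM in wild type. After the GC correction 0 of the 71 passed without db/db 1 (19 had an unadjusted p under 0.05), and the count of 7 was 0 without wild type 3, wild type 5 or db/db 5, 1 without wild type 2, and 2 without wild type 1 or db/db 4.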

How the data were processed

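Total RNA from retina was turned into libraries with a SMARTER kit, per the labels' protocols. The authors deposited FPKM values for 35397 genes in 9 columns, with mm10 named as build per the submitters' processing notes. An aligner, a counter, a strand setting and an annotation were not given in the sources used here. Columns carry the names Control and DR plus a number, and each was assigned to the sample of that arm and number, an inference from the names. Symbols, positions, lengths and GC content came from GENCODE M21 (34499 identifiers matched). Multiplied by exon length, 99.0% to 99.1% of low values were whole reads within 0.1, which gave the depth. Of these whole values, 62.2% to 65.9% in each library were even. Whether recovered reads are independent fragments was not tested.

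Values were tested as log2(FPKM + 1) with limma 3.58.1 in R 4.3.3 (trended eBayes, no covariate) over the 14588 genes that averaged 1 FPKM or more, with Benjamini-Hochberg adjustment over all of them, with and without db/db 1. Spearman's rho was computed with scipy 1.17.1. The limma fit was tested on simulated data with independent noise for each gene. Those data held no deviating library and no trend with transcript length or GC content. Members, lists and tests were chosen with earlier results of these data known. Members with values in every library were, by rule, up to 8 past the threshold in either fit and the 6 with the smallest p; partner genes, up to 6 past it. Dot1l, Setd1b, Smyd2 and others given by library were singled out once their values were known. The alternatives were another pseudocount, filters, priors, scalings, weights, corrections for GC content and length in 20 bins, limma-voom on recovered reads, a block for the library number, and fits without 1 or 2 of the libraries.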

Additional observations from a re-analysis of the deposited data

Results flagged for a closer look

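For each of the 56 genes the db/db libraries and the wild-type libraries were searched for 1 value far from the rest of its group, by the gap to the nearest value as a share of the group's range; chance gives about 1 in 20 groups, and 112 groups were searched. In 6 genes db/db 1 lay far below the other db/db libraries. The ratio was 0.836 for Kdm1b (3.30 FPKM, next 4.62), 0.876 for Kdm4b (23.1, next 32.5), 0.872 for Phf8 (5.26, next 9.53), 0.848 for Kdm2b (1.08, next 2.19), 0.905 for Tet2 (3.28, next 5.80) and 0.932 for Ezh1 (17.7, next 20.3). In Kdm8 the library db/db 5 lay above the others (ratio 0.858, 6.83 FPKM, next 5.56). Among wild-type libraries, number 5 was high for Kdm4b (0.730, 31.1 FPKM, next 29.2) and Kdm2a (0.844, 14.3, next 13.0), and number 4 was low for Ash1l (0.748, 11.8 FPKM, next 12.9) and Dnmt3a (0.886, 12.9, next 15.0). Whether transcript length, which moved with db/db 1 in the list as a whole, has a part in these values was not tested. Dek, on the opposite strand at a mean of 18.6 FPKM, shares 9.19% of the exon bases of Kdm1b, and its part was not tested either.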

How the results depend on the processing

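With all 9 libraries, the count of members past the threshold stayed at 0 with no filter, a pseudocount of 0.1, a minimum mean of 5 FPKM, no intensity trend, robust eBayes, equal sums, quantile normalization, GC correction and the replicate block. It was 1 (Ehmt2) with median-of-ratios scaling, with GC and length correction, with limma-voom and without db/db 1 and db/db 4 together, 3 with length correction and 6 with array weights. Leaving out 1 library gave 0 to 10 members, the 10 without db/db 1, and 0 to 7 partner genes, the 7 likewise. The partner count, 0 with all 9 libraries, was 2 with length correction, 5 with array weights and 2 without db/db 1 and db/db 4. The log2 change of Kdm4b with all 9 libraries, 0.05, was -0.018 with quantile normalization, -0.093 with GC correction, -0.065 with GC and length correction and -0.0024 to 0.18 when 1 library was left out, lowest without db/db 5. That of Kdm4a, 0.07, was -0.0073 with GC correction.

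Without db/db 1, the 10 members became 2 with no filter, 4 with GC correction, 4 with GC and length correction, 1 without db/db 4 and 1 to 13 when any 1 library more was left out; the other alternatives but the block gave 7 to 12. The 7 partner genes became 0 with no filter, 4 with no intensity trend, 0 with GC correction, 3 with GC and length correction, 2 without db/db 4 and 0 to 10 when 1 library more was left out. With the replicate number as a block 0 members and 0 partner genes passed in either fit, and 10 and 9 had an unadjusted p under 0.05 without db/db 1. Same-numbered libraries did not deviate together (r from -0.18 to 0.13 across genes). The labels do not say whether the numbers pair animals, and these values cannot settle it, because each library also deviates in its own way. The block adds terms to a fit of few libraries. The cause of these changes was not tested, except that a fit with fewer libraries or no filter tests with less data or more genes. For most alternatives of either fit the share of all tested genes called is not given. The counts under them therefore do not single out the members or the partner genes. Every member value rested on at least 247 recovered reads.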

Other observations

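Genes that supply the methyl donor or guide the maintenance enzyme were not described above. Mat2a, which makes S-adenosylmethionine, stood at 88.7 ± 12.1 FPKM in db/db (SD, n = 4) and 89.9 ± 5.32 FPKM in wild type (SD, n = 5), and the log2 change was -0.03 (limma adjusted p = 0.891, all 9 libraries). Ahcy, which clears the product of methylation, stood at 10.1 ± 0.919 FPKM in db/db and 9.81 ± 0.762 FPKM in wild type, and the log2 change was 0.04 (adjusted p = 0.805). The mitochondrial one-carbon enzyme Shmt2 was the methyl donor gene that rose without db/db 1, at 21.1, 21.6, 24.9 and 24.6 FPKM in db/db 1, 3, 4 and 5, against 18.4 to 21.9 FPKM in wild type (log2 change 0.25, adjusted p = 0.0454; 0.21 and 0.179 with all 9 libraries). Uhrf1, which guides DNMT1 to newly copied DNA, was listed at 0.107, 0.1002, 0.337 and 0.148 FPKM in db/db 1, 3, 4 and 5, against 0.0618 to 0.131 FPKM in wild type, far below Dnmt1 itself and below the filter. These genes were chosen after their values were seen.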
